A study of Mus musculus with 10 samples.

Results

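The core genes of the circadian clock were examined in layer 5 intratelencephalic projection neurons (IT-PNs) of the mouse primary motor cortex. The group held 10 genes of the 24453 in the count table, namely *Per1*, *Per2*, *Per3*, *Cry1*, *Cry2*, *Clock*, *Arntl*, *Npas2*, *Nr1d2* and *Rora*, and all 10 were found by symbol. They were chosen from the known clock genes after results of the same counts, including the comparison between IT-PN types, had been seen, so their levels and fold changes are given as a description. The study compared *Fezf2+ve* with *Fezf2−ve* IT-PNs. *Fezf2+ve* cells were positive for GFP and for CTB, a cholera toxin subunit coupled to an Alexa dye that travels back along axons, and *Fezf2−ve* cells were positive for CTB alone. All 5 animals were male *Fezf2-Gfp* mice, hemizygous for the (Zfp312-EGFP)CO61GsatMmnc transgene on a Swiss Webster background, in which *Fezf2* regulatory elements drive GFP. The tracer was placed in the left motor cortex at postnatal day 23 to 25, and cells were sorted from the right side. Collection is taken as postnatal day 28 to 32, but the paper states the days from injection to collection for histology only. Each animal gave 1 library of each type, which makes 5 libraries per type and 10 in all. The hour of collection is not given in the sources used here, but both libraries of an animal came from the same dissection.

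Circadian clocks run in almost every mammalian cell as a feedback loop of transcription. CLOCK, or its relative NPAS2, pairs with BMAL1, the product of *Arntl*, and the pair switches on *Per* and *Cry* genes through E-box elements, after which PER and CRY proteins return to the nucleus and repress their own activators. REV-ERB proteins, among them that of *Nr1d2*, and ROR proteins, among them that of *Rora*, compete for RORE elements and set the rhythm of *Arntl*. In the cortex the transcripts of many clock genes rise and fall over the day, and *Rora* is in addition a nuclear receptor of many neurons and glia.

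Between 89138 and 217738 reads per library were counted on genes. The *Fezf2+ve* libraries had 107643 to 203379 reads and the *Fezf2−ve* libraries 89138 to 217738, and the *Fezf2+ve* library was the smaller in 4 of the 5 animals. A two-sided exact test by sign flips of the paired totals gave p = 0.188, but with 5 animals it cannot go below 0.063, so that it could not reach 0.05. A floor of 3 reads corresponds to 13.8 to 33.7 CPM (gene reads scaled to a common library total). Floors and intervals cover counting error only. They leave out the spread between animals, and PCR copies of 1 molecule could not be told from separate molecules. The 10 clock genes together held 1337 of the 1553687 gene reads, which is 860.5 CPM. *Per3* held 68.9% of these reads, and *Per3* and *Rora* together held 86.0%, so that only 187 reads were left for the other 8 genes. Each of the 10 genes had at least 1 read in some library, and 4 of them had fewer than 10 reads in all. *Fezf2* itself had 1 read in the 10 libraries, so the transcript behind the sort could not be followed at this depth.

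The genes were first placed on scales that allow for their length. The sources used here do not state whether reads were counted over whole spans or exons, so a scale by gene span and one by the longest GENCODE transcript are both given. The paper reports more reads in introns than in exons for both types. In several libraries the gene reads outnumbered the reads that the paper mapped to the mouse genome. Counting over exons alone would leave intron reads out, which weakens the transcript scale. In 23 pairs of genes, 1 gene with at least 50 reads lay in an intron of the other by the GENCODE annotation. In 17 of these pairs, 8 of them on opposite strands, the outer gene had at least as many reads as the inner one in all 10 libraries, as counting over whole spans without regard to strand would give, but 5 of the 17 share the outer gene *Gm37013*. The other 6 pairs go against such counting at their annotated positions. In these the inner gene was a microRNA gene with more reads than the outer one in some libraries, such as *Mir3473a* with 2957 reads in *Syap1* with 25, *Mir6362* with 859 in *Dgkg* with 65 and *Mir6989* with 264 in *Map4k2* with 32. The cause was not tested, and this comparison was made after the data had been seen. *Per3* lies within the GENCODE span of *Camta1* on the same strand but was not among the 23 pairs. It had more reads than this outer gene, 921 against 26. On mean CPM per kilobase of gene span, *Per3* was at 17.9, *Cry2* at 1.53 and *Arntl* at 0.343. *Cry1* was at 0.284, *Rora* at 0.166, *Nr1d2* at 0.141 and *Clock* at 0.131. *Per1* (0.063), *Per2* (0.0324) and *Npas2* (0.0233) came last. For *Cry2*, *Arntl*, *Rora* and *Per3* this mean rested largely on 1 library, as described for each gene, so the order of neighbours is not firm. Per kilobase of transcript, *Per3* was again first with a mean CPM of 122, followed by *Cry2* (11.7), *Rora* (11.2), *Arntl* (9.15) and *Cry1* (5.00). *Clock* was at 1.28, *Nr1d2* at 1.06, *Npas2* at 0.932, *Per2* at 0.240 and *Per1* at 0.199, so that *Per1* and not *Npas2* was last. Priming at the poly(A) tail weakens the link between length and count, so the mean CPM without regard to length is given as well. It was 733 for *Per3*, 122 for *Rora*, 46.5 for *Cry2*, 36.5 for *Arntl*, 15.1 for *Cry1* and 12.5 for *Clock*. For *Nr1d2* it was 4.95, for *Npas2* 3.95, for *Per2* 1.40 and for *Per1* 0.929. The place of *Rora* thus depended on the scale, since it came after *Per3* without regard to length, after *Cry2* per kilobase of transcript and after *Cry1* per kilobase of span.

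**Figure D1:**
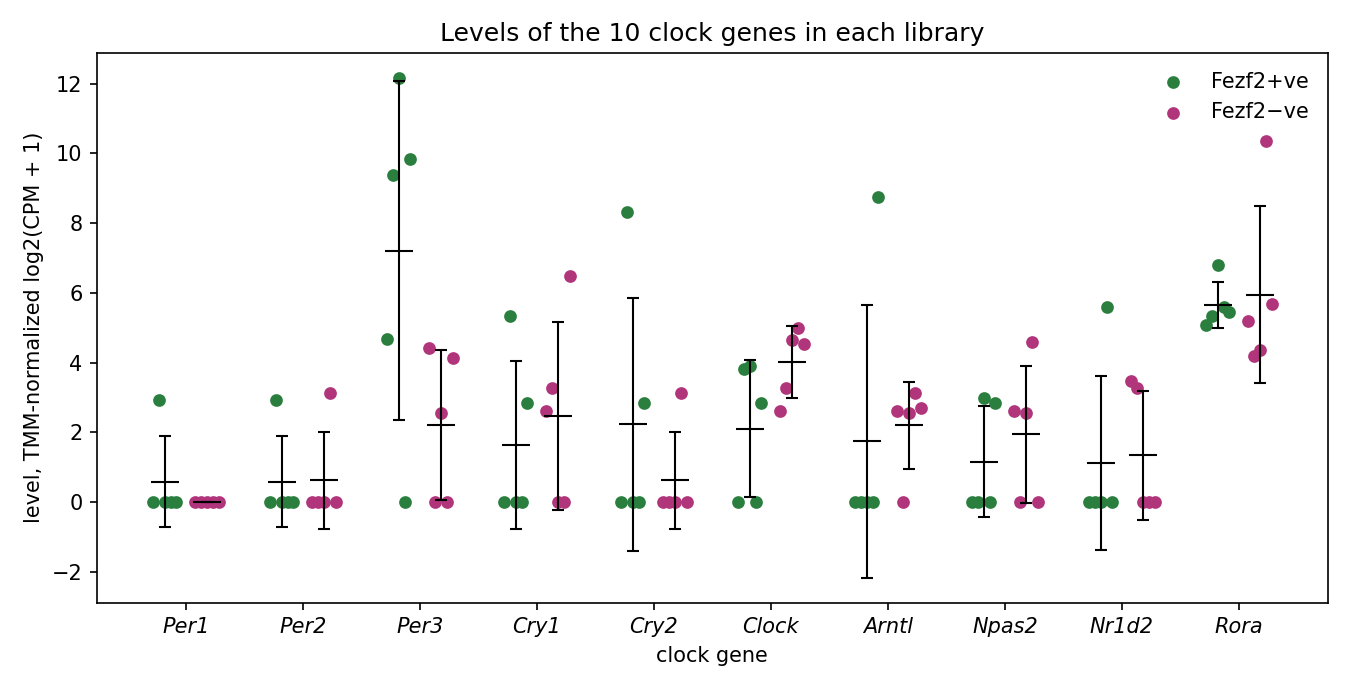
Level of each clock gene in each library, as TMM-normalized log2(CPM + 1), in *Fezf2+ve* (green) and *Fezf2−ve* (magenta) IT-PNs. Each point is 1 library, horizontal marks are means and bars are SD (n = 5). *Rora* was the only one of the 10 with a read in all 10 libraries, and single high points stand out for *Cry2*, *Arntl* and *Rora*.

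The *Per* genes encode the period proteins of the repressing arm. *Per3* (ENSMUSG00000028957, a protein-coding gene at chromosome 4, 151003652 to 151044665, minus strand, build GRCm38 or mm10) gave 3, 101, 661, 0 and 148 reads in *Fezf2+ve* IT-PNs of animals 1 to 5. The *Fezf2−ve* IT-PNs of the same animals gave 4, 0, 1, 0 and 3 reads. Animals 2, 3 and 5 therefore had many reads in the *Fezf2+ve* library and few in its partner, whereas in animals 1 and 4 both libraries were low and the ranges of the types overlapped. On the log2(CPM + 1) scale the level of *Per3* was 7.21 ± 4.86 (SD, n = 5) over the *Fezf2+ve* libraries, against 2.22 ± 2.15 (SD, n = 5) over the *Fezf2−ve* libraries. The *Fezf2+ve* level was well above that of its partner in animals 2, 3 and 5. In animal 1 it was 4.68 against 4.41, on 3 and 4 reads near the floor, and in animal 4 both levels were 0. The mean paired difference in level was 4.99 ± 4.70 (SD, n = 5). Pooled over libraries, 913 of the 921 *Per3* reads were in *Fezf2+ve* libraries, a ratio of CPM of 140 with an exact 95% counting interval of 70.6 to 324. Without animal 3 this ratio was 42.5 (exact 95% counting interval 20.3 to 107), and without animal 1 it was 269, in a check added after the data had been seen. Of all *Per3* reads, 71.8% came from *Fezf2+ve* library 3, in which its CPM was 5598 (exact 95% interval 5181 to 6041). The fitted log2 fold change, *Fezf2+ve* over *Fezf2−ve*, was 6.08 (standard error 2.15). Omitting 1 animal at a time gave 4.62 to 7.68, the lowest without animal 3. In bulk samples, fewer cells with the transcript and less transcript per cell cannot be told apart.

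In GENCODE 1 of the 13 transcripts of *Camta1*, a transcription factor gene on the same strand, spans *Per3*. *Camta1* had 0 to 7 reads per library and 26 in all, against 921 for *Per3*. Whether RNA from the long *Camta1* transcript gave reads on *Per3* was not tested.

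**Figure D2:**
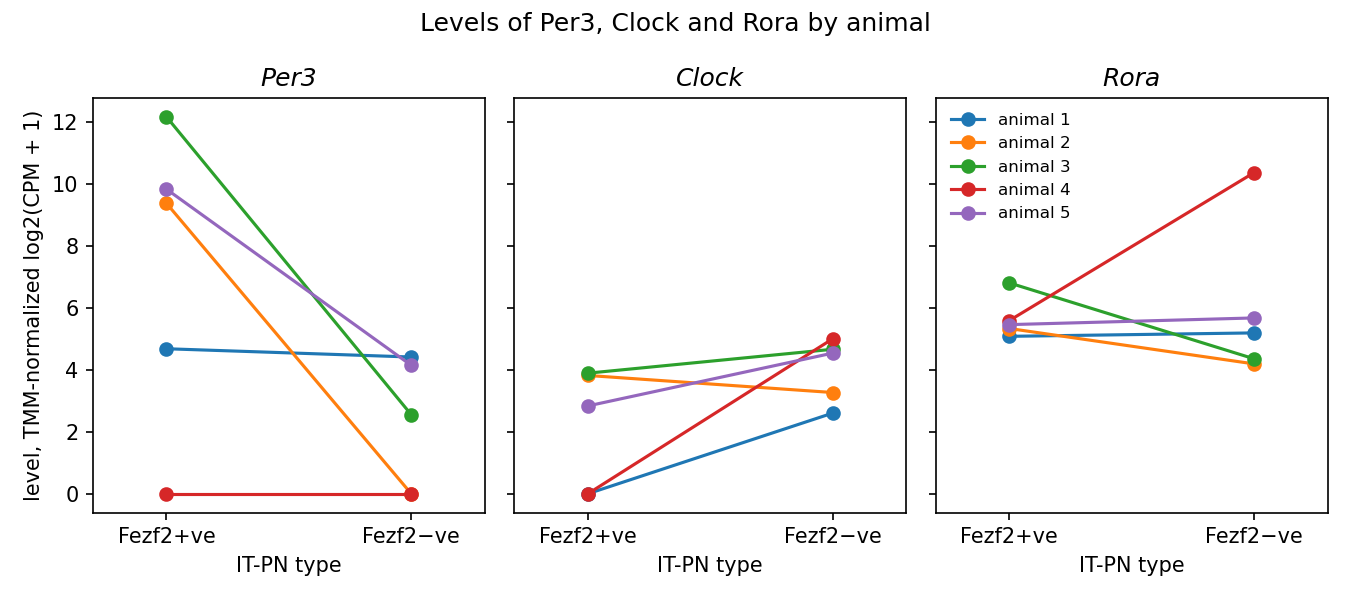
Levels of *Per3*, *Clock* and *Rora* as TMM-normalized log2(CPM + 1), with both libraries of an animal joined by a line (5 animals). *Per3* fell steeply from *Fezf2+ve* to *Fezf2−ve* in animals 2, 3 and 5, *Clock* lay higher in *Fezf2−ve* in 4 animals, and *Rora* was at 10.36 in the *Fezf2−ve* library of animal 4.

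*Per1* and *Per2*, the other period genes, were almost without reads. *Per1* (chromosome 11, 69095217 to 69109960, plus strand) had 1 read, in *Fezf2+ve* library 2. *Per2* (chromosome 1, 91415982 to 91459324, minus strand) had 2 reads, 1 of them in *Fezf2+ve* library 2 and 1 in *Fezf2−ve* library 4. Differences between the types in these genes were not detectable at this depth, and neither passed the filter of at least 10 CPM in at least 2 libraries.

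The cryptochromes *Cry1* and *Cry2* encode the partners of the PER proteins in repression. *Cry1* (chromosome 10, 85131700 to 85185064, minus strand) gave 0, 6, 0, 0 and 1 reads in *Fezf2+ve* IT-PNs of animals 1 to 5, and 1, 1, 0, 0 and 16 reads in their *Fezf2−ve* IT-PNs. Only *Fezf2+ve* library 2 and *Fezf2−ve* library 5 stood above the floor of 3 reads. Its level was 1.63 ± 2.40 (SD, n = 5) over the *Fezf2+ve* libraries, against 2.47 ± 2.69 (SD, n = 5) over the *Fezf2−ve* libraries, a difference smaller than either SD. The log2 fold change of *Cry1* was -1.05 (standard error 1.88), and it changed sign to 0.41 without animal 5. *Cry2* (chromosome 2, 92403646 to 92434043, minus strand) had 0, 49, 0, 0 and 1 reads in *Fezf2+ve* and 0, 0, 0, 1 and 0 reads in *Fezf2−ve* libraries. All but 2 of its 51 reads, or 96.1%, thus lay in *Fezf2+ve* library 2, and the other 9 libraries did not separate the types. *Cry2* did not pass the filter. The antisense transcript *D930015M05Rik* overlaps it and had 1 read.

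Of the activators, *Clock* (chromosome 5, 76209868 to 76304792, minus strand) encodes the partner of BMAL1. It had 0, 2, 2, 0 and 1 reads in *Fezf2+ve* and 1, 1, 5, 4 and 4 reads in *Fezf2−ve* IT-PNs of animals 1 to 5. *Clock* was thus found in 5 of the 5 *Fezf2−ve* and in 3 of the 5 *Fezf2+ve* libraries, always with few reads, and the ranges overlapped. Its level was 2.11 ± 1.97 (SD, n = 5) over the *Fezf2+ve* libraries, against 4.01 ± 1.03 (SD, n = 5) over the *Fezf2−ve* libraries, and it was higher in *Fezf2−ve* in 4 animals. The pooled ratio of its CPM, *Fezf2+ve* over *Fezf2−ve*, was 0.408 with an exact 95% counting interval of 0.116 to 1.18, and it ranged from 0.278 to 0.535 when each animal was left out. The log2 fold change was -1.39 (standard error 1.33). *Fezf2+ve* libraries 1 and 4, which had no *Clock* read, had 4853 and 3990 genes with a read. Their *Fezf2−ve* partners had 7334 and 5707. The part of depth in the detection of *Clock* was not tested.

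*Arntl*, the gene for BMAL1 (chromosome 7, 113207465 to 113314126, plus strand), had 0, 0, 0, 0 and 70 reads in *Fezf2+ve* and 1, 0, 1, 1 and 1 reads in *Fezf2−ve* libraries. *Fezf2+ve* library 5 held 94.6% of its 74 reads, whereas in 4 of the 5 *Fezf2+ve* libraries no read was found. The summed reads and the count of libraries therefore pointed in opposite directions, with more reads in *Fezf2+ve* and more libraries with a read in *Fezf2−ve* IT-PNs. *Npas2*, which can stand in for *Clock* (chromosome 1, 39193731 to 39363236, plus strand), had 7 reads in 5 libraries, with at most 3 in any. Neither gene passed the filter.

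The nuclear receptor genes *Nr1d2* and *Rora* belong to the loop that sets the rhythm of *Arntl*. *Nr1d2* (chromosome 14, 18204054 to 18239127, minus strand) had 4 reads in *Fezf2+ve* library 4, 2 reads in *Fezf2−ve* library 1 and 1 in *Fezf2−ve* library 2. The fitted log2 fold change of *Nr1d2* was -0.07 (standard error 1.15), with a sign that depended on the fit and on the animals kept. *Rora* (chromosome 9, 68653786 to 69388246, plus strand) had 4, 6, 16, 4 and 7 reads in *Fezf2+ve* and 7, 2, 4, 170 and 9 reads in *Fezf2−ve* IT-PNs of animals 1 to 5. It was found in all 10 libraries, and *Fezf2−ve* library 4 held 74.2% of its 229 reads. In the other 9 libraries it had 2 to 16 reads, or 22.4 to 136 CPM, with the most in *Fezf2+ve* library 3. The level of *Rora* was 5.65 ± 0.67 (SD, n = 5) over the *Fezf2+ve* libraries, against 5.95 ± 2.54 (SD, n = 5) over the *Fezf2−ve* libraries, a difference smaller than either SD. Its log2 fold change was -0.06 (standard error 1.57), and 0.75 without animal 4. The fit without the animal as a block gave -2.38 for *Rora*. The antisense gene *Gm15511*, which has no row in the count table, overlaps *Rora*, and its part in the *Rora* reads was not tested.

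Of the 10 clock genes, 5 passed the filter (*Per3*, *Rora*, *Clock*, *Cry1* and *Nr1d2*), as did 7409 of all 24453 genes. With the animal as a block in the quasi-likelihood test of edgeR, 0 of these 5 genes and 0 (0%) of the 7409 had a Benjamini-Hochberg adjusted p at or below 0.1. An unadjusted p under 0.05 was found for 1 of the 5 and for 3.89% of all tested genes in the same edgeR fit. Without the block, edgeR called 1 of the 5, as against 3.77% of all tested genes. DESeq2 with the block gave an adjusted p to 2 of the 5, *Per3* and *Rora*, and called 1, as against 5.89% of the 1664 genes to which it gave an adjusted p. In each case that gene was *Per3*. Since the genes were chosen with this comparison known, and since a gene high in a few libraries of 1 type passes the filter through them, these counts are no support for a difference in the clock.

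The promoters of *Per3*, *Cry1* and *Arntl* are shown because their letters match, in that order, the D-box, E-box and RORE motifs of the clock. They were picked for these matches, so shares over all windows are given as a description only. The RefSeq windows on GRCm38.p6 run from 250 bases before to 50 bases after each start and were found for 9 of the 10 genes (13 windows), with no entry for *Per2*. Both strands were searched for the E-box CACGTG, its variant CACGTT, the D-box TTATGTAA, the RORE and the half-site AGGTCA, which can be part of a RORE. Matches are in capitals, 5′ to 3′ on the strand of the gene. The *Per3* window (chr4:151044616-151044915, minus strand), the *Cry1* window (chr10:85185005-85185304, minus strand) and the *Arntl* window (chr7:113207261-113207560, plus strand) read as follows.
Per3: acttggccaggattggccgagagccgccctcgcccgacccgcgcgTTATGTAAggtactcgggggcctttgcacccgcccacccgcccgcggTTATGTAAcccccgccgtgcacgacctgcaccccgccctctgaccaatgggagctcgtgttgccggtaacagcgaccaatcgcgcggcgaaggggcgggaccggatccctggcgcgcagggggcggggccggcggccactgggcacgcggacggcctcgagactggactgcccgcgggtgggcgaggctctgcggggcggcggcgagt
Cry1: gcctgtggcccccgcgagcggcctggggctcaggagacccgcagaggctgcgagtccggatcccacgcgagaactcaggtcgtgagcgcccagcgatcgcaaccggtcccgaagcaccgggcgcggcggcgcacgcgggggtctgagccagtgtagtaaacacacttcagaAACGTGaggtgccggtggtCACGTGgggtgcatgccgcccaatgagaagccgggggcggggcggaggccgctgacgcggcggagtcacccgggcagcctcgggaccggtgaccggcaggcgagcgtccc
Arntl: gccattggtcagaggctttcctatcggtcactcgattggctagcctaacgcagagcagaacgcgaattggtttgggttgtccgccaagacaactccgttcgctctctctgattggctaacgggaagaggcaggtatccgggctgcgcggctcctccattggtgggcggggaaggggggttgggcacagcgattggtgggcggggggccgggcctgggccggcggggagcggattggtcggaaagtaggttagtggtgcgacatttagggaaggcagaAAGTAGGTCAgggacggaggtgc

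The *Per3* window holds 2 D-boxes, which begin 205 and 158 bases before the start. A D-box was found in 0.938% of all 32851 windows of this length, and in no other window of the clock genes. The *Cry1* window has an E-box 60 bases and a CACGTT on the opposite strand 79 bases before the start. The first *Per1* window has an E-box 166 bases before its start, and the other *Per1* window has no match. E-boxes were in 7.15% and CACGTT in 4.68% of all windows, and *Cry2* also has a CACGTT. The RORE in the second *Arntl* window begins at base 28 of the transcript and includes an AGGTCA, and such a RORE was in 0.773% of all windows. AGGTCA alone was in 16.3% of windows and also in a single window of each of *Per1*, *Clock* and *Nr1d2*. A match describes these letters only, and no binding was measured.

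**Figure D3:**
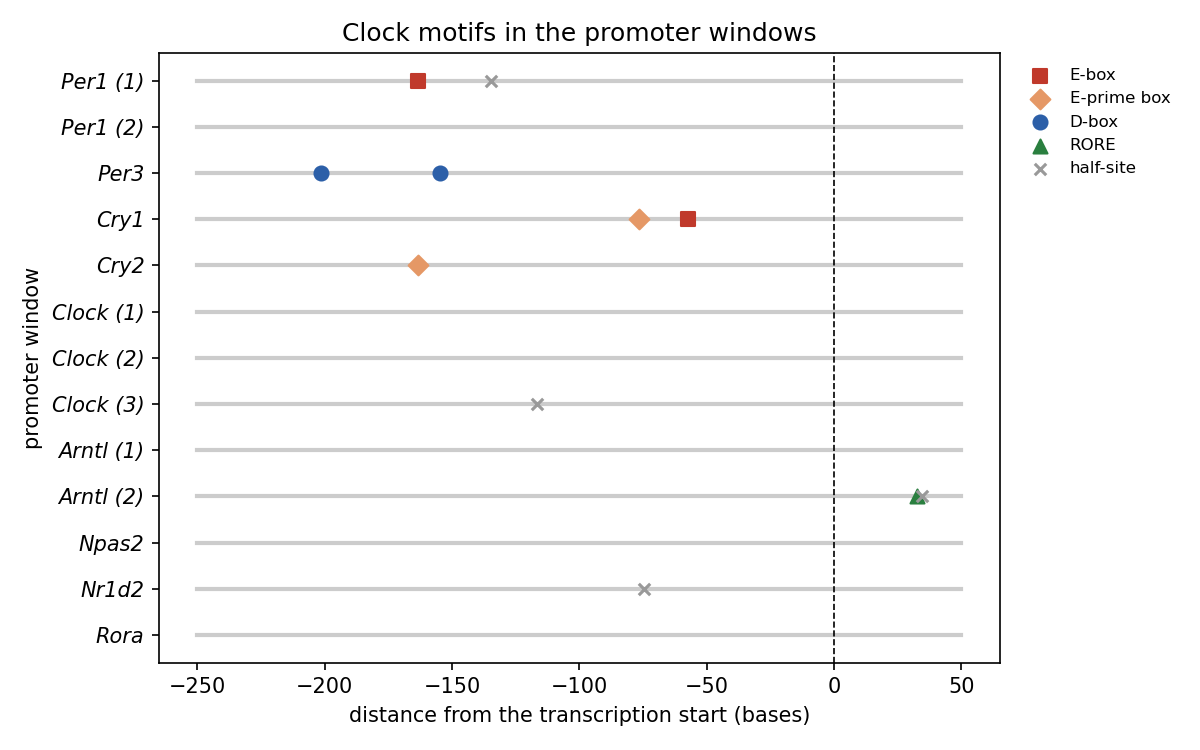
Positions of E-box, E-prime box (CACGTT), D-box, RORE and half-site (AGGTCA) matches in the 13 promoter windows of 9 clock genes, in bases from the transcription start (dashed line). Grey lines are windows, numbered where a gene has several. *Per3* alone has D-boxes, 2 in number.

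Genes of similar pattern were sought for *Per3*, *Rora* and *Arntl*, the 3 with the most reads. Among up to 2127 tested genes with at least 50 reads and reads in at least 5 libraries, Pearson's correlation of levels over the 10 libraries was calculated as a description. The genes most like *Per3* were *Snrpn* (r = 0.900), *Dnajc5* (r = 0.852) and *Mboat7* (r = 0.836). *Snrpn* had 2, 11, 34, 1 and 31 reads in *Fezf2+ve* and 3, 0, 1, 1 and 4 reads in *Fezf2−ve* libraries, so that the same 3 libraries were high as for *Per3*. *Mboat7* was high in these libraries too, with 48, 36 and 30 reads in *Fezf2+ve* libraries 2, 3 and 5. *Dnajc5* had 71.2% of its reads in *Fezf2+ve* library 5 and only 2 reads in *Fezf2+ve* library 2. The genes most like *Rora* were *Ptprm* (r = 0.935), *Park2* (r = 0.933) and *Spire1* (r = 0.929), with 94.4%, 90.5% and 62.0% of their reads in *Fezf2−ve* library 4. For *Arntl* they were *Sec14l1* (r = 0.994), *Rrm2b* (r = 0.905) and *Commd10* (r = 0.896), each with over 90% of its reads in *Fezf2+ve* library 5. These points share library, depth and amplification.

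A wider list of 41 clock genes, written from general knowledge, covered further loop regulators, the PAR-bZIP output genes with their repressor *Nfil3*, enzymes that modify clock proteins, and coregulators. Of these, 6 had no read in any library, among them *Dbp*, *Nfil3* and *Arntl2*, and 20 passed the filter. *Dbp*, a standard output gene of the clock, was thus not detectable, and neither the PAR-bZIP genes *Dbp*, *Tef* and *Hlf* nor *Nfil3* passed the filter. Of the 20, 9 had a positive and 11 a negative log2 fold change, with a median of -0.17, beside a median of -0.16 over all tested genes. The edgeR fit with the block called 0 of the 20, with 1 at an unadjusted p under 0.05, *Crebbp*, beside 3.89% of all tested genes. Without the block edgeR called 2, both higher in *Fezf2−ve* IT-PNs, beside 3.77% of all tested genes. DESeq2 called 1 of the 9 to which it gave an adjusted p, beside 5.89% of all such genes.

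The 8 genes of the wider list with the most reads were dominated by single libraries. *Usp9x*, a deubiquitinase gene, had 1790 reads with 93.6% in *Fezf2+ve* library 5. *Btrc* and *Fbxw11*, which encode the ubiquitin ligase subunits that mark PER proteins for breakdown, had 1317 and 636 reads, with 96.0% in *Fezf2−ve* library 5 and 88.2% in *Fezf2−ve* library 4. The coactivator genes *Crebbp* and *Ep300* had 1082 and 344 reads, with 93.9% in *Fezf2−ve* library 5 and 95.6% in *Fezf2−ve* library 3. *Rorb*, a relative of *Rora*, had 728 reads with 88.7% in *Fezf2−ve* library 3. *Wdr5* had 414 reads with 97.3% in the same library, and *Csnk2a1*, a casein kinase gene, 254 reads with 87.4% in *Fezf2−ve* library 1. The log2 fold change of *Crebbp* was -6.55 (standard error 2.85), that of *Csnk2a1* -3.29 (standard error 1.99) and that of *Fbxw11* -2.81 (standard error 1.99). For *Btrc* it was -1.63 (standard error 1.49) and for *Ep300* -2.30 (standard error 2.99). *Wdr5*, *Usp9x* and *Rorb* had fitted values against the direction of their summed reads, 0.97 (standard error 1.78), -0.68 (standard error 1.95) and 0.03 (standard error 1.31), which became -4.71, 3.63 and -2.30 without the block.

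**Figure D4:**
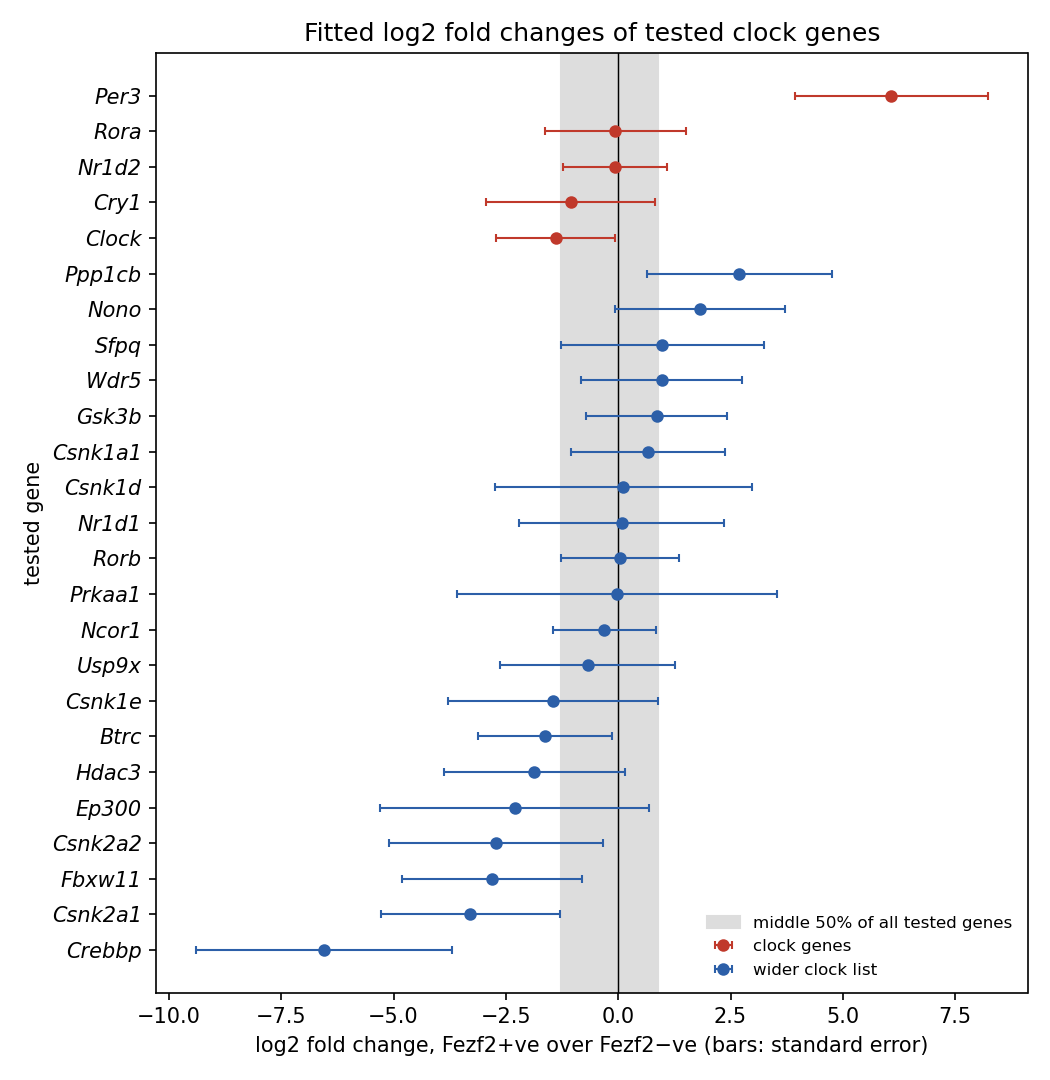
Fitted log2 fold changes, *Fezf2+ve* over *Fezf2−ve*, of the 5 tested clock genes (red) and the 20 tested genes of the wider list (blue), with standard errors as bars. The grey band holds the middle 50% of all 7409 tested genes, from -1.26 to 0.88. *Per3* (6.08) and *Crebbp* (-6.55) lie farthest from 0.

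The gathering of reads in 1 library was common in these data. Among the 855 tested genes with 100 to 500 reads, the library with the most reads held a median of 69.0% of them, and among the 409 genes with 500 to 2000 reads a median of 89.1%. *Per3* (921 reads) was below this median with 71.8%, and 274 of the 409 genes had a larger share in 1 library. *Rora* (229 reads) had 74.2% in 1 library, and 381 of 855 genes exceeded that share. *Clock*, with 25.0% of 20 reads in its highest library, was spread most evenly of the 10.

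**Figure D5:**
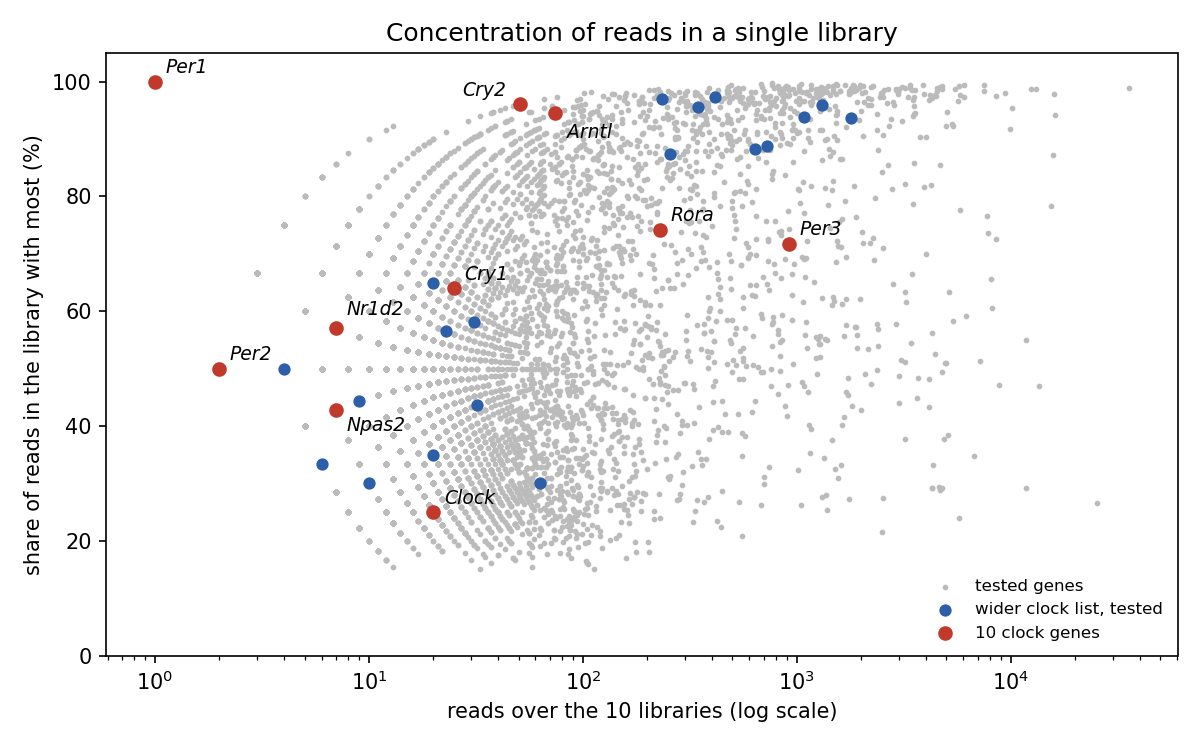
Share of a gene's reads that came from its highest library (vertical axis, %) against its reads over the 10 libraries (horizontal axis, log scale), for all 7409 tested genes (grey), tested genes of the wider list (blue) and the 10 clock genes (red). *Per3* and *Rora* lie within the grey cloud at 71.8% and 74.2%.

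Markers of other cells moved with the type or with single libraries. The microglial list (9 of 9 genes with reads, most abundant *Ctss* with 817) summed to 66.0 to 237 CPM in *Fezf2+ve* libraries. In *Fezf2−ve* libraries it summed to 1542 to 6437 CPM, without overlap. All 9 genes had a negative log2 fold change, as did 4021 of all 7409 tested genes, and 0 of the 9 were called. The 3 red blood cell genes were also all negative. Microglia have clocks of their own, and the part of these cells in the values of *Clock* or *Per3* was not tested. Oligodendrocyte genes (5 of 5 with reads, among them *Mbp* with 557) were at 10042 CPM in *Fezf2+ve* library 2, the library with 49 *Cry2* reads, and at 106 to 1668 CPM in the other 9. The astrocyte list (5 of 6 with reads, *Gfap* at 0, most abundant *Slc1a2* with 1817) was at 7320 CPM in *Fezf2+ve* library 2 and at 3785 CPM in *Fezf2−ve* library 4, the library with 170 *Rora* reads. In the other 8 libraries it was at 23.0 to 1676 CPM. *Fezf2+ve* library 2 had only 6 *Rora* reads (55.7 CPM), and *Fezf2−ve* library 4 had 1 *Cry2* read. Whether oligodendrocytes or astrocytes contributed to *Cry2* or *Rora* was not tested.

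Excitatory neuron genes (8 of 8 with reads, most abundant *Camk2a* with 588) were at 39.6 to 2222 CPM in *Fezf2+ve* and 61.5 to 3379 CPM in *Fezf2−ve* libraries, and *Slc17a7*, a defining marker, had 11 reads in 5 libraries. The 3 libraries with the most *Per3* reads had 409 (*Fezf2+ve* library 2), 246 (library 3) and 2222 CPM (library 5) on this list. Inhibitory neuron genes (3 of 6 with reads, most abundant *Gad2* with 6, and *Slc32a1*, *Pvalb* and *Vip* at 0) stayed at or below 44.9 CPM. Endothelial genes (4 of 4 with reads, most abundant *Flt1* with 26) stayed at or below 59.3 CPM. Red blood cell genes (3 of 3 with reads, most abundant *Hbb-bs* with 410) were at 3543 and 2805 CPM in *Fezf2−ve* libraries 1 and 2, and at most 753 CPM elsewhere. Excitatory marker reads were thus few in several libraries.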

How the data were processed

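The data were read counts per gene in 10 RNA-seq libraries. Per the labels and methods, the authors aligned trimmed reads to mm10 by TopHat2 2.1.1, and the deposited values are BEDTools 2.26.0 multiCov counts on RefFlat genes with no normalization. MultiCov can count a read on every gene it overlaps, and libraries were primed with oligo-dT and amplified by PCR and in vitro transcription. The deposited comparison of the types, with fold changes and p-values, was not used.

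Genes that reached 10 CPM in 2 or more libraries were normalized by TMM and fitted in R 4.3.3 by the quasi-likelihood method of edgeR 4.0.16. Animal was a block in the model, and an adjusted p of up to 0.1 was a call. Pairing comes from the labels, which assign both types to one animal; deviations of an animal's libraries from the type means had correlations of -0.027 to 0.097 across genes. Levels are TMM-normalized log2(CPM + 1). Standard errors were calculated back from the F statistic. Gene positions are those of GENCODE vM21. Alternatives included DESeq2 1.42.0 with the block, other size factors, no filter, and leaving out each animal. Python 3.11.15 with scipy 1.17.1 was used for the rest.

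The clock genes, the wider list, the marker lists and the motifs were chosen with earlier results of these data known. Named were all 10 genes, tested genes of the wider list with values for the 8 with the most reads, genes of like pattern by the rule in the text, and markers. Some genes without reads, *Tef*, *Hlf*, *Camta1*, *D930015M05Rik*, *Gm15511*, *Fezf2* and examples of genes within genes were named in addition. Results of some single genes of the lists are not reported here.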

Additional observations from a re-analysis of the deposited data

Results flagged for a closer look

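Among groups of 5 libraries of 1 type, some levels lay far from the other 4 libraries by Dixon's ratio of gap to range, with a critical value of 0.71. This was the case for 8 values in the 19 groups of gene levels that had any spread, and for none in the 2 groups of library totals. Chance flags about 1 in 20 groups of continuous values, but that rate is no reference here, since for 6 of the 8 values the other 4 libraries were at 0 and the ratio is then 1 by construction. At most 1 read lies behind 5 of the 8. Levels are on the log2(CPM + 1) scale.

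*Arntl* in *Fezf2+ve* library 5 had a level of 8.75 on 70 reads, with no read in the other *Fezf2+ve* libraries. *Rora* in *Fezf2−ve* library 4 had a level of 10.36 on 170 reads. *Nr1d2* in *Fezf2+ve* library 4 had a level of 5.59 on 4 reads.

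*Per1* and *Per2* in *Fezf2+ve* library 2 each had a level of 2.92 from a single read. *Per2* and *Cry2* in *Fezf2−ve* library 4 each had a level of 3.13, also from a single read. *Arntl* in *Fezf2−ve* library 2 was at 0, where the other *Fezf2−ve* libraries had 1 read each.

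The high level of *Cry2* in *Fezf2+ve* library 2 was not among these values, because *Fezf2+ve* library 5 also had a read.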

How the results depend on the processing

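The number of genes called at an adjusted p of 0.1 was 0 of 7409 by edgeR with the animal as a block. Without the block edgeR called 279, and DESeq2 with the block called 98. For the 10 clock genes these numbers were 0, 1 and 1, and for the wider list 0, 2 and 1. No call was made with DESeq2 size factors, library size only, no filter, the legacy quasi-likelihood method (chosen after the data had been seen), or any animal left out (range 0 to 0 for each count). The cause of these differences between fits was not tested.

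The log2 fold change of *Per3* was positive in all 11 alternatives (4.62 to 7.68), and that of *Clock* negative in all 11 (-2.03 to -0.95). *Nr1d2* changed sign without the block (1.04), without the filter (0.078) and when animals were left out (-2.57 to 0.88). *Rora* ranged from -0.80 to 0.75 and *Cry1* from -1.20 to 0.41 with animals left out, where *Cry1* did not pass the filter without animal 2. The mean difference in level kept its sign for *Per3*, *Cry1* and *Clock* in all 7 alternatives, and that of *Per1* went to 0 without animal 2. It changed sign for the other 6 genes in at least 1 alternative, with ranges of -0.78 to 0.73 for *Per2*, -0.07 to 2.79 for *Cry2*, -2.07 to 0.57 for *Arntl*, -1.69 to 0.17 for *Npas2*, -1.69 to 0.58 for *Nr1d2* and -0.99 to 0.82 for *Rora*. The difference in depth, *Fezf2+ve* minus *Fezf2−ve*, was -31211 reads and stayed negative with each animal left out (-43640 to -24070), a check added after the data had been seen.

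Depth limits most of these genes. A level on 1 to 3 reads is not separated from 0, and only *Per3*, *Rora*, *Cry1* and *Clock* had more than 3 reads in over 1 library.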

Other observations

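Of the spike-in and gene reads together, the share on the ERCC spike-in, synthetic RNAs added to each sample, was 2.79% to 46.7%. It was lowest in *Fezf2−ve* library 5 and highest in *Fezf2+ve* library 1. It was 9.04%, 6.44% and 8.51% in *Fezf2+ve* libraries 2, 3 and 5, which had 101, 661 and 148 *Per3* reads. *Fezf2+ve* library 1 had 3 *Per3* reads, and *Fezf2+ve* library 4, with a share of 12.6%, had none. In *Fezf2−ve* libraries 1 to 5 the share was 24.8%, 27.1%, 6.52%, 9.81% and 2.79%, with 4, 0, 1, 0 and 3 *Per3* reads. The number of clock genes with a read was 7 in *Fezf2+ve* libraries 2 and 5 and in *Fezf2−ve* library 1, and 2 in *Fezf2+ve* libraries 1 and 4. The 10 genes with the most reads held 57.1% and 47.4% of all gene reads in those last libraries. A relation between these values and the clock genes was not tested.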
